A study of Mus musculus with 6 samples.

Results

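Mitosis genes encode the machinery that condenses, attaches and separates chromosomes and then divides the cell. The 36 genes described here, from Mki67 and Top2a to Ncapd2 and Tacc3, were taken from a list of symbols, and all 36 were found among the 27998 genes of the deposited matrices. Their UMI counts (a UMI marks 1 captured RNA molecule) were compared in stem-like, dividing-like, secretory progenitor-like and early enterocyte-like cells of the mouse small intestine. All libraries held epithelial cells from the small intestine of 8-week C57BL/6J mice, 3 libraries of wild-type mice and 3 of mice labelled Itgb7 KO, and no treatment was named. Itgb7 encodes the β7 chain of integrins carried mainly by gut lymphocytes, and per the series title the study concerned how T cells that carry αEβ7 act on stem cell fate. The labels do not say how many mice gave each library, and each p-value therefore reflects differences among single libraries, part of which may be technical. They also do not say which part of Itgb7 was removed. Directions below run from wild-type to the libraries with the Itgb7 KO label, called labelled KO libraries.

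In the intestinal crypt, stem cells divide less often than the transit-amplifying cells above them, which divide quickly before they become enterocytes or secretory cells. Transcripts of mitosis genes build up through the G2 phase, peak around mitosis and are lost after cell division, so they mark cells that are about to divide or have just divided. Cyclin B with Cdk1 starts mitosis. Plk1 and the Aurora kinases steer it, the kinetochore and checkpoint proteins hold it until chromosomes are attached, and Cdc20 and Ube2c serve the anaphase-promoting complex that ends it.

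Many mitosis genes share 2 short promoter motifs known from the cell cycle field, the cell cycle genes homology region TTTGAA (or TTCGAA), bound by the MuvB complex, and the CCAAT box, bound by NF-Y. RefSeq promoter windows on GRCm38.p6, 250 bases before to 50 after the gene's start, were matched by symbol for 31 of the 36 genes; those for Aurkb, Ccna2, Kif20a, Smc4 and Tpx2 were not. Counted on both strands, TTTGAA lay in a window of 24 of the 31 genes (77.4%), against 20.2% of the 27025 genes with windows. CCAAT was also present in 24 of the 31 (77.4%), against 41.1% of all genes. TTTGAA or TTCGAA together with CCAAT was held by 22 of 31 (71.0%), against 8.61% of all genes, 33 of 88 other mitosis genes (37.5%) and 6 of 45 DNA replication genes (13.3%). The letters of the motifs can share bases where they adjoin. In 21 of the 31 genes a TTTGAA lay within 50 bases of the start, a distance for which other genes were not counted. In 7 of 31 (22.6%) 2 CCAAT matches began 31 to 33 bases apart. The same held for 6 of 88 other mitosis genes (6.82%), 3 of 45 DNA replication genes (6.67%) and 1.11% of all genes. This spacing was chosen after the positions were seen, so the share among the 31 is a description and no test.

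The stretches just before the start of 6 of these genes are shown because they carry the motifs in different arrangements, and the last has none. Each is read 5′ to 3′ on the gene's strand, with each motif match in capitals. Where the CCAAT box lies on the other strand it reads ATTGG here. Likewise a TTTGAA on the other strand reads TTCAAA. Negative positions count bases before the RefSeq start, and each stretch ends where RefSeq or the GENCODE M21 gene annotation begins the gene. None of them therefore lies in an annotated exon of its own gene.
Mki67, chr7:135716380-135716499, minus strand: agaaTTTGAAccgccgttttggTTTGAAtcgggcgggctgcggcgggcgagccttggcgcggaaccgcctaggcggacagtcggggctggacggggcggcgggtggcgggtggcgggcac
Top2a, chr11:99024190-99024309, minus strand: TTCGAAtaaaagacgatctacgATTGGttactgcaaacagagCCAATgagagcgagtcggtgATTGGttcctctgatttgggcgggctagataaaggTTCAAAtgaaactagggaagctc
Cdk1, chr10:69352939-69353032, minus strand: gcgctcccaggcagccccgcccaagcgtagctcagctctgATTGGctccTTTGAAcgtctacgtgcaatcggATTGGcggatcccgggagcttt
Cdc20, chr4:118437353-118437463, minus strand: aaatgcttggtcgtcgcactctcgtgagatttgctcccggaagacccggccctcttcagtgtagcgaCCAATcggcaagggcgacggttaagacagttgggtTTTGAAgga
Kif11, chr19:37376262-37376381, plus strand: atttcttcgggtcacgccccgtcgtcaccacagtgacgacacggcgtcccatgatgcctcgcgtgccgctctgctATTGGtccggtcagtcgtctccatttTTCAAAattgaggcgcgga
Nusap1, chr2:119618178-119618297, plus strand: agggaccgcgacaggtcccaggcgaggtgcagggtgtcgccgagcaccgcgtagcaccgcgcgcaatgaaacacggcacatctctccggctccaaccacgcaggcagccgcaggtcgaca

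Cdc20 and Kif11 held TTTGAA close to the start, at positions -18 and -19, each behind a CCAAT, at -53 and -45. Cdk1 held TTTGAA at -71, between CCAAT matches at -80 and -48, and again at -15. Mki67 held it at -116 and -98, and its CCAAT matches, the nearest at -141, lay before the stretch shown. Nusap1, 1 of 6 matched genes with neither TTTGAA nor TTCGAA, also held no CCAAT in its window. These matches describe the sequence and show no binding, and no binding was measured.

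The libraries differed in depth, and both libraries numbered 1 stood apart. Their barcodes held a median of 22384 (wild-type) and 19529 (labelled KO) UMIs with no barcode under 7754, against medians of 6079.5 to 12103 in the other 4, where the lowest barcodes held 1417 to 2946. Library pairs shared 12 to 42 barcodes of 2773 to 5738. Itgb7 had 3, 8 and 2 UMIs in wild-type and 18, 33 and 12 in labelled KO libraries, so its 3′ counts did not verify the labels, and each direction below rests on the labels alone. Of 26153 barcodes 25076 were kept as cells. They fell into 27 clusters, of which 1 (1487 cells) was stem-like, led by Gkn3 and Lgr5, and 8 (8230 cells) were dividing-like. Clusters 0 and 19 (1198 cells), led by Atoh1 and Dll1, were secretory progenitor-like, and clusters 2 and 13 (2106 cells) were early enterocyte-like. The summed level of 16 T-cell markers was at most 5.47 CPM (UMIs per 1000000 of the class and library) in these 4 classes. In dividing-like cells it was 2.22 to 3.42 CPM in wild-type and 1.77 to 2.03 CPM in labelled KO libraries, and its part in the results was not tested.

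Because the clusters were made from these same genes, levels between classes are a description. In dividing-like cells the 36 genes together made up 3508 to 4382 CPM over the 6 libraries. In secretory progenitor-like cells they made up 2697 to 3719 CPM, which overlaps that range. Early enterocyte-like cells had 693 to 1150 CPM, stem-like cells 434 to 780 CPM and mature enterocyte-like cells 274 to 395 CPM. The ranges of early enterocyte-like and stem-like cells overlapped, while both lay below dividing-like and secretory progenitor-like cells in every library. Set against the same library's dividing-like level, the median gene stood at 81.0% in secretory progenitor-like cells, 18.1% in early enterocyte-like, 12.9% in stem-like and 5.98% in mature enterocyte-like cells.

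**Figure D1:**
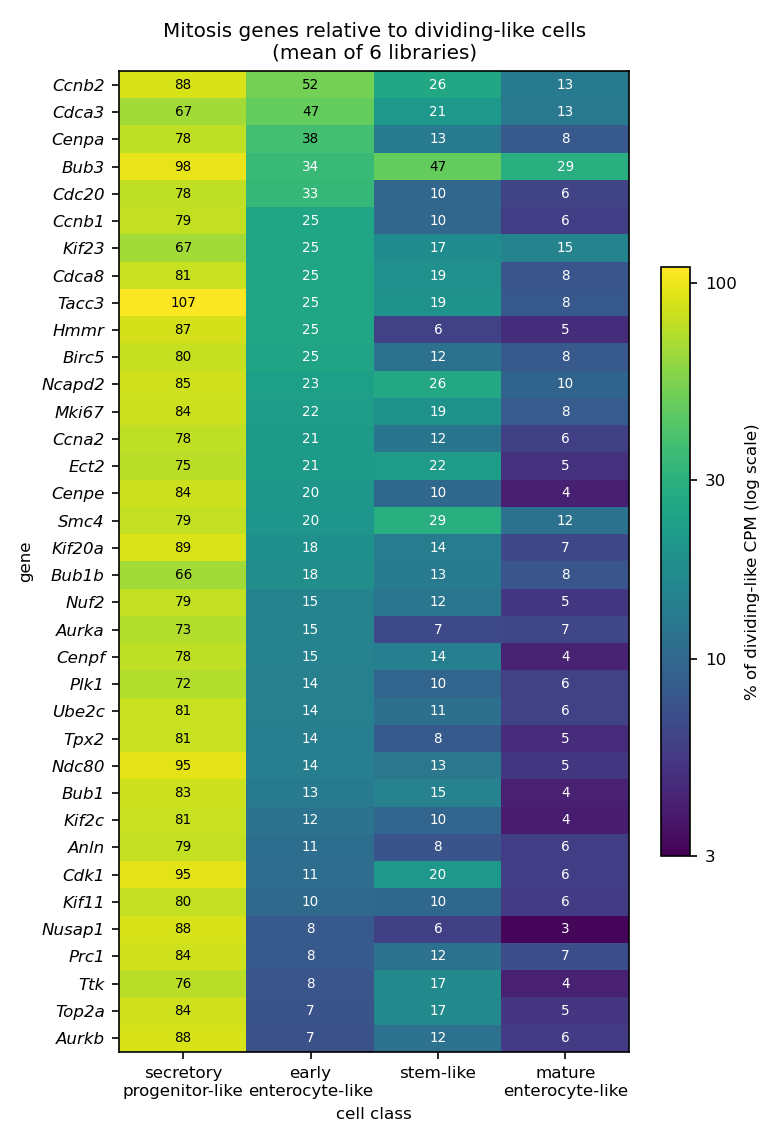
Level of each of the 36 genes (rows) in 4 cell classes (columns) as a percentage of its CPM in dividing-like cells of the same library, averaged over 6 libraries; colour is on a log scale. Secretory progenitor-like cells kept most of the dividing-like level for every gene (66.3% to 107%), while in early enterocyte-like cells the share ran from 52.0% for Ccnb2 to 7.32% for Aurkb.

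In secretory progenitor-like cells all 36 genes stood at 66.3% of the dividing-like level or more. Tacc3, which stabilises spindle microtubules, stood at 107% ± 14.4 (SD, n = 6) of the dividing-like level. Bub3, a checkpoint protein that binds kinetochores, stood at 97.6% ± 6.68, and Cdk1 at 94.5% ± 8.43. The lowest were Bub1b, another checkpoint protein, at 66.3% ± 14.7, with Cdca3 and Kif23 at 67.1% each.

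In early enterocyte-like cells some of the genes stood at much higher shares of their dividing-like level than others. The word kept compares levels between groups of cells here and does not follow cells over time. Ccnb2, a B-type cyclin, kept 52.0% ± 7.29 (SD, n = 6) of its dividing-like level, and Cdca3, a mitotic entry factor, kept 46.7% ± 4.68. Cenpa, the histone H3 variant of centromeres, kept 37.6% ± 5.32, Bub3 34.3% ± 5.05 and Cdc20 32.8% ± 6.33. At the other end, Aurkb, the kinase of the chromosomal passenger complex, was at 7.32%, Top2a, which untangles DNA, at 7.49% ± 2.71, and Prc1 and Nusap1, both of which bundle spindle microtubules, at 8.17% and 8.22%. In stem-like cells Bub3 stood highest at 47.1% ± 8.37, followed by Smc4 (29.0%) and Ncapd2 (26.4%), both condensin subunits, and Ccnb2 (25.7%). Nusap1 (5.94%) and Hmmr (6.09%) stood lowest there. Of the 36 genes, Bub3 alone stayed above 20% in all 4 other classes shown, at 29.1% in mature enterocyte-like cells.

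The 8 dividing-like clusters separated the genes further. Clusters 18 and 7 were led by DNA replication genes such as Rrm2 and Ung, clusters 9, 14 and 15 had Ube2c and Nusap1 among their first 10 genes, and clusters 16, 17 and 20 had Ccnb2 and Cenpa there. By mean CPM over libraries, 20 of the 36 genes were highest in cluster 15, 11 in cluster 14, 3 in cluster 9 and 2, Ccnb2 and Cenpa, in cluster 20. Taken library by library, 28 of the 36 genes had the same highest cluster in 4 or more of the 6 libraries. The other 8 did in 2 or 3, among them Ccnb1, Cdca8 and Smc4, the 3 genes of cluster 9, and Aurkb, Bub1, Bub1b and Cenpf of cluster 14. The median gene in cluster 9 stood at 95.6% of its cluster 15 level (73.9% to 130% over genes) and in cluster 14 at 93.1% (59.9% to 153%). In cluster 16 the median gene was at 36.5%, with a wide range. There Ccnb2 stood at 116% ± 7.89 (SD, n = 6) of its cluster 15 level, Cenpa at 96.8% ± 6.6, Cdc20 at 94.1% ± 13.7 and Cdca3 at 77.7% ± 4.97. In the same cells Cdk1 stood at 12.9%, Nusap1 at 9.91%, Top2a at 9.75%, Prc1 at 8.95% and Aurkb at 8.36%. Clusters 17 and 20 showed the same split, with Ccnb2 at 100.1% and 133% of its cluster 15 level, Cdc20 at 61.9% and 94.6%, Cdk1 at 13.03% and 11.9%, Top2a at 7.98% and 8.86% and Aurkb at 6.52% and 7.401%. All 3 clusters thus kept most of the cluster 15 level of Ccnb2, Cenpa and Cdc20 RNA and little of that of Cdk1, Top2a and Aurkb. Across the 36 genes, the share kept in cluster 16 and the share kept in early enterocyte-like cells ranked alike (Spearman's rho 0.77), against 0.21 for the share kept in stem-like cells. The same 2 values were 0.74 and 0.34 for cluster 17 and 0.60 and 0.26 for cluster 20. The points share libraries and class totals, genes are not independent, and the clusters were made from these genes, so this is a description. Bub3 did not follow it, at 22.3% in cluster 16.

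**Figure D2:**
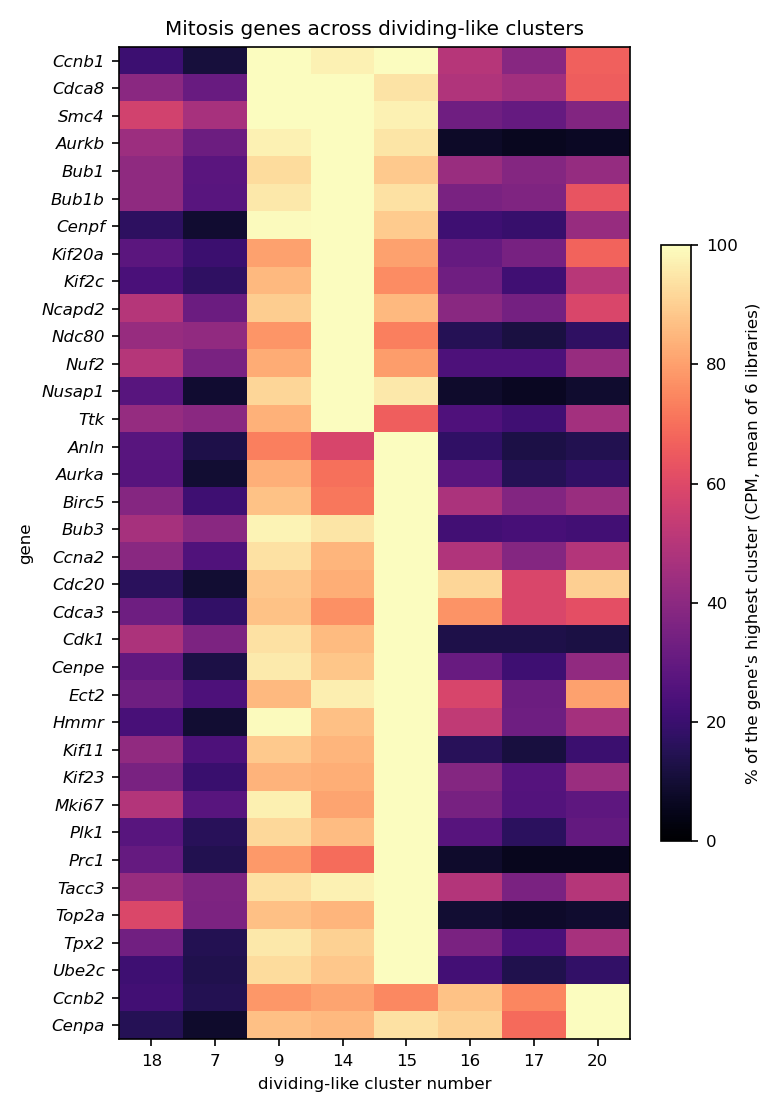
Mean CPM over 6 libraries of each of the 36 genes (rows) in the 8 dividing-like clusters (columns), as a percentage of the gene's highest cluster. Clusters 9, 14 and 15 are bright for nearly every gene, while in cluster 16 Ccnb2, Cenpa, Cdc20 and Cdca3 stay bright and Aurkb, Prc1, Top2a and Nusap1 are dark.

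The shares of the dividing-like clusters within that class overlapped between the groups. Cluster 15 held 12.7% ± 1.22 (SD, n = 3) of wild-type dividing-like cells and 13.1% ± 2.19 of labelled KO ones, and cluster 16 held 9.53% ± 3.92 and 10.5% ± 0.209. Exact 2-sided permutation tests over libraries gave p from 0.6 to 0.9 for the 8 clusters, where the smallest p that 3 against 3 libraries allow is 0.1. Among all kept cells, the dividing-like class was 33.7% ± 4.31 (SD, n = 3) in wild-type and 32.0% ± 2.51 in labelled KO libraries (exact permutation p = 0.4).

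The numbers of cells rich in these transcripts also overlapped between groups. Each cell was thinned to 4000 UMIs, leaving out shallower cells (13 wild-type and 53 labelled KO dividing-like cells, 9 and 69 stem-like cells), and counted where at least 10 of its UMIs came from the 36 genes. Of dividing-like cells, 68.6%, 61.4% and 57.3% in wild-type replicates 1 to 3 and 71.0%, 65.2% and 52.6% in labelled KO replicates 1 to 3 reached this level. Replicate 1 was highest in both groups and replicate 3 lowest, and the difference of means was 0.519 percentage points (exact 2-sided permutation p = 1). Of secretory progenitor-like cells, 46.6% ± 14.6 (SD, n = 3) in wild-type and 47.2% ± 10.9 in labelled KO libraries reached it (exact permutation p = 1). Of early enterocyte-like cells it was 9.25% ± 0.861 and 8.99% ± 2.85 (exact permutation p = 0.9). The median early enterocyte-like cell had 2 such UMIs and the highest 43, so that a minority of cells reached the level. Of stem-like cells it was 1.31% ± 0.781 and 0.735% ± 1.27 (exact permutation p = 0.6), and mature enterocyte-like cells, taken as the background, had 0.114% and 0.125%. With no thinning, the difference in dividing-like cells was -10.7 percentage points (exact permutation p = 0.4), beside the lower depth of the labelled KO libraries. The levels of the smaller shares moved with how cells were grouped. Stem-like cells stood at 13.9% and 13.1% (wild-type and labelled KO means) at Leiden resolution 1.0, 40.5% and 39.9% with cell-cycle genes left out of the clustering, and 5.57% and 5.06% with doublets kept. Early enterocyte-like cells stood at 5.66% and 4.57%, 15.7% and 16.5%, and 0.219% and 0.313% under the same 3 settings, and at 1.29% and 0.672% with no correction for library.

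**Figure D3:**
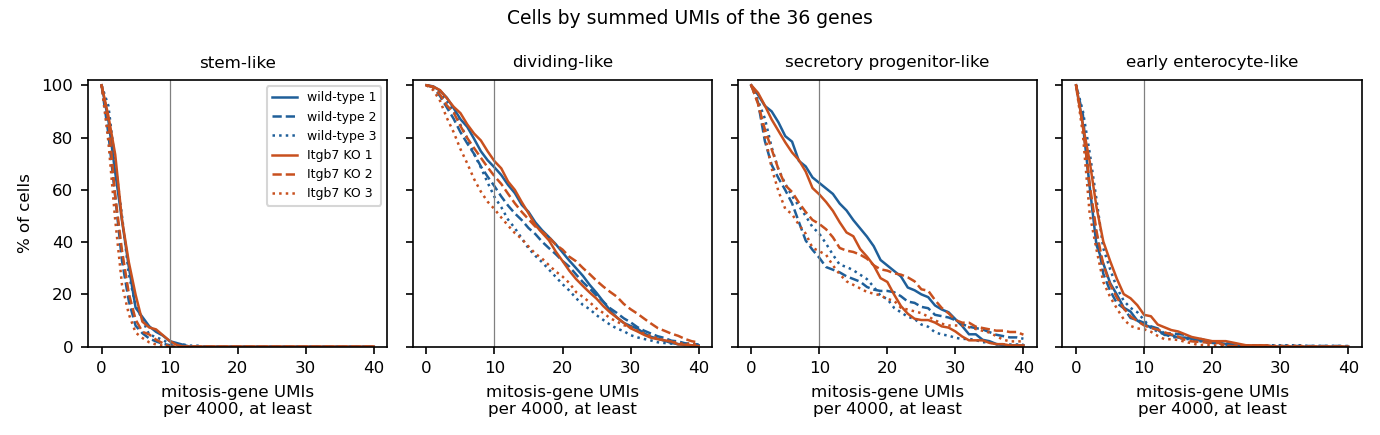
Percentage of cells (y axis) with at least the number of UMIs on the x axis from the 36 genes, each cell thinned to 4000 UMIs, for 4 classes and each of 6 libraries; the grey line marks 10 UMIs. At that line dividing-like libraries of both groups interleave between 52.6% and 71.0%, and stem-like libraries lie at 2.21% or lower.

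Single genes were seen in part of the cells of each class. After thinning, Mki67, the antigen used to stain cycling cells, was seen in 22.6% to 37.0% of dividing-like cells per library, in 3.73% to 12.5% of stem-like cells and in 2.43% to 4.18% of mature enterocyte-like cells. Unthinned, the share of dividing-like cells with an Mki67 UMI ran from 34.6% in labelled KO replicate 3 to 86.1% in wild-type replicate 1, whose dividing-like cells held medians of 6785.5 and 25875 UMIs. It ran from 6.10% to 32.4% of stem-like and from 3.63% to 17.3% of mature enterocyte-like cells, again lowest in labelled KO replicate 3. Top2a was seen in 33.04% to 50.9% of thinned dividing-like cells and in 2.75% to 4.52% of mature enterocyte-like cells.

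No mitosis gene passed the test between groups in any of the 4 classes. With edgeR's quasi-likelihood test on UMIs summed per library, 0 of 36 genes passed an adjusted p of 0.05 in dividing-like cells, where 0 of 11994 genes (0%) passed. The count was 0 of 28 in stem-like cells (0 of 9362 genes, 0%), 0 of 36 in secretory progenitor-like cells (1 of 9626 genes, 0.0104%) and 0 of 33 in early enterocyte-like cells (0 of 9598 genes, 0%). The genes too low to test were Bub1, Tpx2, Kif2c, Hmmr, Nuf2, Ndc80, Ttk and Anln in stem-like cells and Bub1, Ndc80 and Ttk in early enterocyte-like cells. DESeq2 passed no mitosis gene either, beside 9, 4, 5 and 4 of all genes in dividing-like, stem-like, secretory progenitor-like and early enterocyte-like cells. At an unadjusted edgeR p below 0.05 stood 1 mitosis gene each in dividing-like cells (2.68% of all genes tested), stem-like cells (3.24%) and secretory progenitor-like cells (1.42%), and 0 in early enterocyte-like cells (3.57%). The median log2 fold of the tested mitosis genes (labelled KO over wild-type) was 0.027 in dividing-like, -0.14 in stem-like, -0.0071 in secretory progenitor-like and -0.067 in early enterocyte-like cells, where that of all genes tested lay between 0.0010 and 0.0025.

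**Figure D4:**
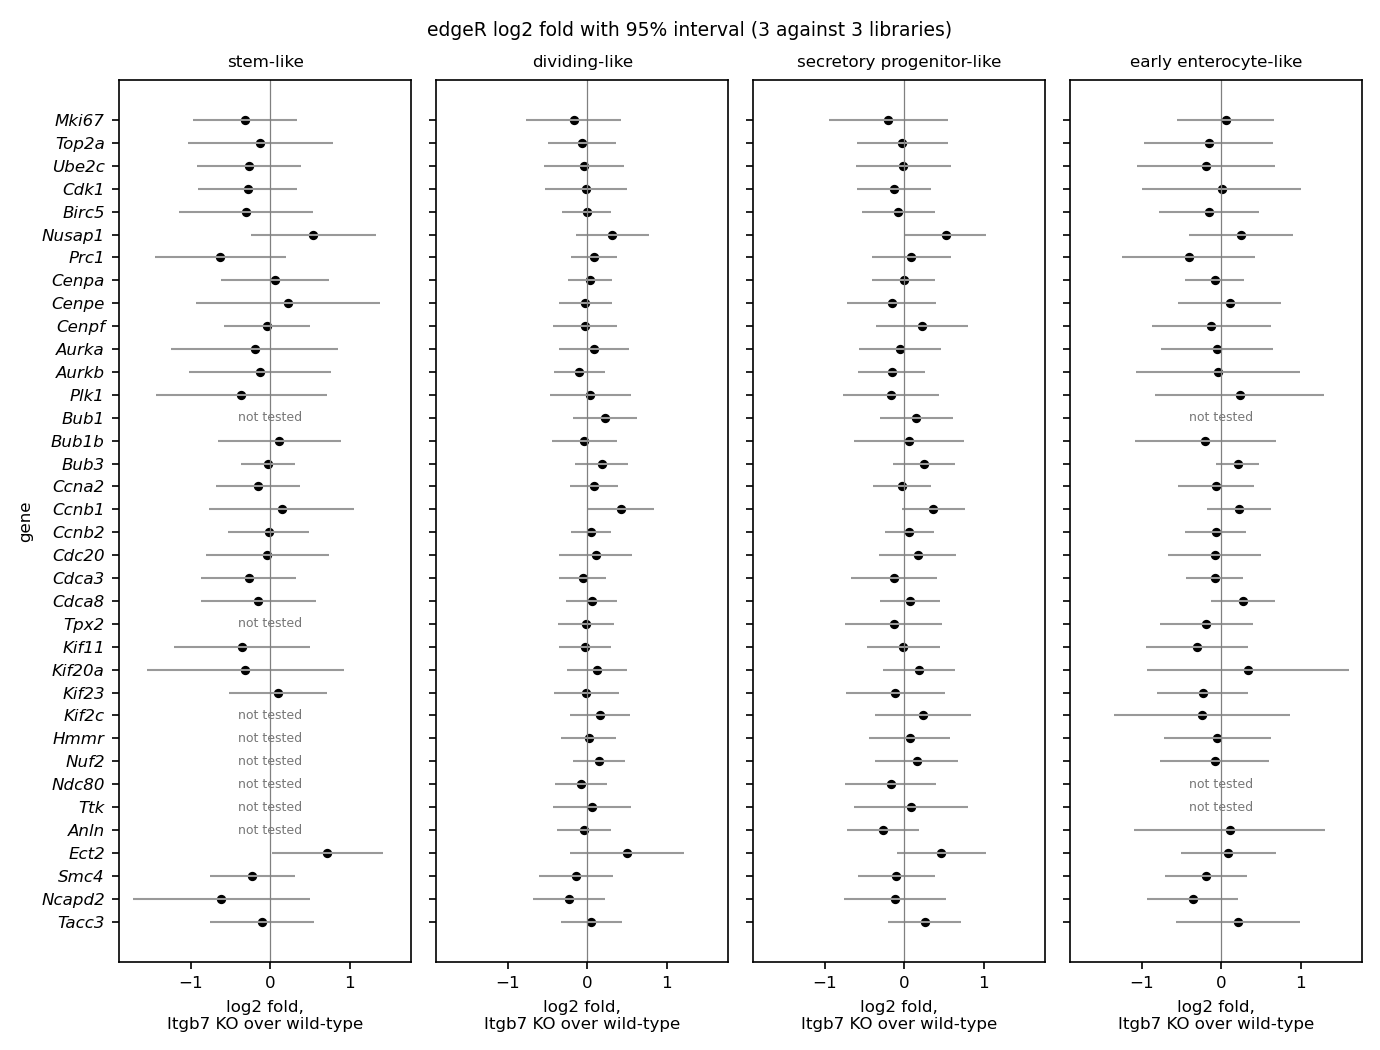
edgeR log2 fold of Itgb7 KO over wild-type libraries (x axis) with its 95% interval for each of the 36 genes (y axis) in 4 classes, from 3 against 3 libraries. Points lie between -0.63 and 0.72, and 3 intervals leave out 0 (Ect2 in stem-like, Ccnb1 in dividing-like and Nusap1 in secretory progenitor-like cells).

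The intervals show which differences these libraries could still hide. In dividing-like cells the 95% interval of the log2 fold lay within 2-fold either way for 35 of 36 genes, and its median half-width was 0.38. Secretory progenitor-like cells had 34 of 36 such genes (half-width 0.51), early enterocyte-like cells 24 of 33 (0.64) and stem-like cells 15 of 28 (0.75). The intervals of the other genes reached beyond 2-fold, most often in stem-like cells.

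Among the regulators that start mitosis, Ccnb1 (cyclin B1) had the lowest p in dividing-like cells. Its level was 118, 124 and 88.0 CPM in wild-type replicates 1 to 3 and 117, 177 and 158 CPM in labelled KO replicates 1 to 3. Labelled KO replicates 2 and 3 lay above all wild-type libraries, while replicate 1 lay among them. The log2 fold was 0.43 (SE 0.18, edgeR adjusted p = 0.936). In secretory progenitor-like cells Ccnb1 was at 98.2, 95.2 and 71.0 CPM in wild-type and 104, 134 and 109 CPM in labelled KO libraries, which did not overlap, with a log2 fold of 0.36 (SE 0.17, edgeR adjusted p = 1.0). It was the 1 mitosis gene of 36 with higher, non-overlapping labelled KO libraries there, as were 2.93% of all genes tested, and 0 of 36 were lower (3% of all genes). In stem-like cells Ccnb1 stood at 9.23 to 13.5 CPM in wild-type and at 17.3, 15.4 and 4.05 CPM in labelled KO libraries, the last from 6 UMIs.

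Cdk1, the partner of cyclin B, overlapped in dividing-like cells, with 165, 138 and 110 CPM in wild-type and 157, 152 and 104 CPM in labelled KO libraries. Plk1 (Polo-like kinase 1) stood at 75.8, 63.5 and 52.1 CPM against 71.8, 79.3 and 48.5 CPM. Aurkb stood at 72.0, 75.8 and 63.9 CPM against 65.5, 79.0 and 55.7 CPM. For all 3 kinases the lowest value was that of a library numbered 3, and the difference of means was smaller than the SD of either group.

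Chromosome structure genes were also mixed between groups. Top2a stood at 224, 178 and 171 CPM in wild-type and 208, 188 and 157 CPM in labelled KO libraries (log2 fold -0.07, SE 0.18, edgeR adjusted p = 0.972). Smc4 stood at 225, 193 and 177 CPM against 220, 176 and 149 CPM. Both were highest in the libraries numbered 1, which held the most UMIs per cell, and lowest in labelled KO replicate 3, the shallowest. Mki67, whose protein coats mitotic chromosomes, showed the same order, with 133, 98.9 and 97.9 CPM against 129, 95.5 and 72.0 CPM (log2 fold -0.17, SE 0.26, edgeR adjusted p = 0.949). Whether depth had a part in this order was not tested. After thinning cells to 4000 UMIs no gene of the 36 passed between groups, as before thinning, which does not bear on the order of libraries. Cenpa did not share this order, with 230, 230 and 239 CPM against 239, 271 and 215 CPM.

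**Figure D5:**
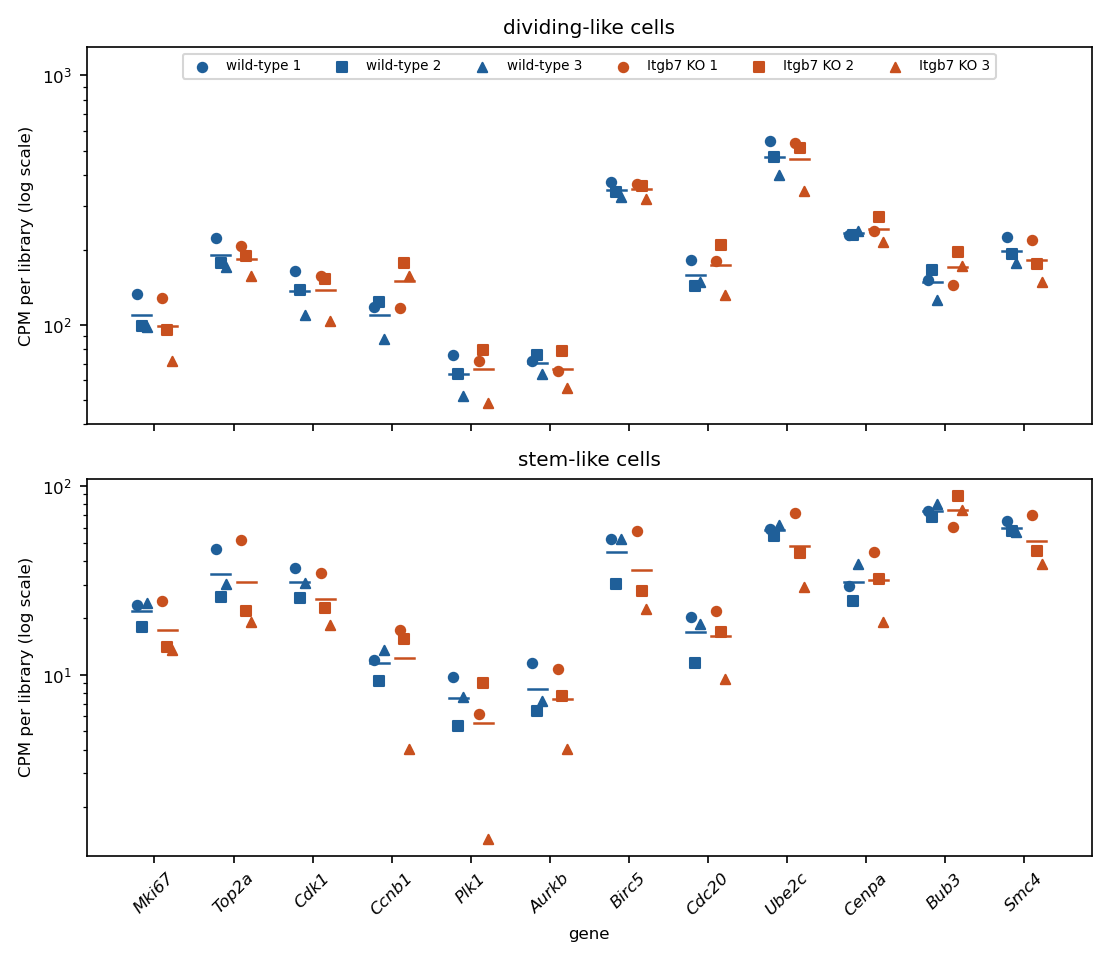
CPM (log scale) of 12 of the genes in dividing-like cells (top) and stem-like cells (bottom); each point is 1 library, blue for wild-type and orange for Itgb7 KO, with circles, squares and triangles for replicates 1, 2 and 3 and a line at each group's mean. The groups overlap for all 12 genes in both classes, and the triangle of labelled KO replicate 3 is the lowest point for most genes, Ccnb1 and Bub3 in dividing-like cells and Bub3 in stem-like cells excepted.

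Birc5 (survivin), the passenger complex subunit that brings Aurkb to centromeres, stood at 373, 342 and 325 CPM in wild-type and 366, 361 and 321 CPM in labelled KO libraries. Bub3 stood at 152, 166 and 126 CPM against 145, 197 and 172 CPM. For the anaphase-promoting complex, the ubiquitin-conjugating enzyme Ube2c stood at 545, 471 and 400 CPM against 538, 513 and 343 CPM. Its activator Cdc20 stood at 183, 143 and 149 CPM against 181, 209 and 131 CPM. The groups overlapped for each of these genes, as they did for all 36 in dividing-like cells, where 2.91% of all genes tested were higher and 4.14% lower in labelled KO libraries with no overlap.

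Of the spindle and cytokinesis genes, Ect2 in stem-like and Nusap1 in secretory progenitor-like cells had the lowest p of their class. Ect2, which activates RhoA for cytokinesis, stood at 6.33, 8.67 and 7.29 CPM in wild-type and 7.99, 12.7 and 18.2 CPM in labelled KO stem-like cells (log2 fold 0.72, SE 0.31, edgeR adjusted p = 0.976; 0.43 without labelled KO replicate 3). Only replicate 1 of the labelled KO libraries overlapped wild-type. In dividing-like cells Ect2 stood at 29.1, 52.3 and 35.5 CPM against 30.7, 63.3 and 74.1 CPM, and both libraries numbered 1 were the lowest. Nusap1 in secretory progenitor-like cells stood at 88.1, 83.9 and 68.5 CPM against 78.7, 134 and 147 CPM (log2 fold 0.52, SE 0.22, edgeR adjusted p = 1.0). Again labelled KO replicates 2 and 3 lay above, and replicate 1 among, the wild-type libraries.

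In early enterocyte-like cells 1 gene was higher and 2 were lower in labelled KO libraries with no overlap, beside 3.6% and 4.96% of all genes tested. Bub3 was at 49.1, 47.3 and 53.0 CPM in wild-type and 55.2, 59.1 and 59.8 CPM in labelled KO libraries (log2 fold 0.21, SE 0.12, edgeR adjusted p = 0.964). Ncapd2 (a condensin subunit) was at 9.59, 10.8 and 9.76 CPM against 9.25, 8.69 and 4.94 CPM, and Kif11, the motor that pushes spindle poles apart, at 4.34, 4.28 and 4.39 CPM against 4.05, 3.14 and 3.46 CPM. Their log2 folds were -0.36 (SE 0.25) and -0.30 (SE 0.28), with edgeR adjusted p = 0.964 for both. In stem-like cells 0 of 28 were higher (3.62% of all genes) and 0 were lower (4.5%) with no overlap. Without labelled KO replicate 3 the log2 fold of Ncapd2 was -0.18, and without labelled KO replicate 2 that of Kif11 was -0.15.

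Labelled KO replicate 3 held the lowest CPM of 20 of the 36 genes in dividing-like cells, 20 of 36 in secretory progenitor-like, 23 of 33 in early enterocyte-like and 21 of 28 in stem-like cells. Labelled KO replicate 2 held the highest of 19 in dividing-like cells and of 16 in secretory progenitor-like cells, while labelled KO replicate 1 held the highest of 21 in early enterocyte-like and 12 in stem-like cells. The labelled KO libraries thus stood at both ends. In stem-like cells the summed level was 721, 556 and 730 CPM in wild-type and 780, 591 and 434 CPM in labelled KO libraries. Fewer dividing cells within a class and less RNA per cell cannot be told apart in such sums.

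Leaving out 1 library moved these results most in stem-like and early enterocyte-like cells. Without labelled KO replicate 1, the median log2 fold became -0.51 in stem-like cells, where 11 of 31 mitosis genes had an unadjusted edgeR p below 0.05 (10 lower; 14.9% of all genes tested), and -0.34 in early enterocyte-like cells, where 4 of 34 did (4 lower; 13.99%). The lowest edgeR adjusted p of a mitosis gene was then 0.170 and 0.168, so that 0 passed. Within the pair numbered 1, the median log2 difference of CPM (labelled KO minus wild-type, pseudocount 1 CPM) was 0.097 in stem-like cells, and between the other libraries it was -0.39. In early enterocyte-like cells these values were 0.27 and -0.33, in dividing-like cells -0.043 and 0.068 and in secretory progenitor-like cells -0.12 and 0.10. The SD of the library medians, pooled within groups, was 0.35 in stem-like, 0.37 in early enterocyte-like, 0.16 in dividing-like and 0.24 in secretory progenitor-like cells. All of these differences but the -0.39 in stem-like cells were smaller than the SD of their class. That SD is the spread of single libraries and not of these differences, so it is a rough yardstick and no test. Without wild-type replicate 3 as well, the value between the other libraries was -0.17 in stem-like, -0.19 in early enterocyte-like, -0.019 in dividing-like and 0.086 in secretory progenitor-like cells. With both libraries numbered 1 left out, an alternative added after the data were seen, the median log2 fold was -0.30 in stem-like, -0.29 in early enterocyte-like, 0.062 in dividing-like and 0.096 in secretory progenitor-like cells, and 0 genes passed.

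The genotype effect was also compared between dividing-like and stem-like cells, with the library as a term. Of the 36 mitosis genes, 0 passed an adjusted edgeR p of 0.05 (lowest adjusted p = 0.998), beside 3 of 11068 genes (0.0271%). At an unadjusted p below 0.05 stood 1 of 36, Prc1 (difference of log2 folds 0.72, SE 0.31), beside 4.51% of all genes. Without labelled KO replicate 1, 0 passed, with a lowest adjusted p of 0.0968.

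Other genes of the cell cycle gave like counts of genes passing. Of 110 other mitosis genes, 0 passed in any of the 4 classes (80 tested in stem-like, 110 in dividing-like, 108 in secretory progenitor-like and 89 in early enterocyte-like cells). Their median log2 fold was -0.080, 0.0018, -0.0053 and -0.034 in the same order. In stem-like cells Cdc16, a subunit of the anaphase-promoting complex, had the lowest p, with 43.6, 47.0 and 42.6 CPM in wild-type and 30.2, 36.6 and 33.1 CPM in labelled KO libraries (log2 fold -0.44, SE 0.14, edgeR adjusted p = 0.976). Hjurp, the chaperone that loads Cenpa, was next (log2 fold -0.45, SE 0.17, edgeR adjusted p = 0.976). In early enterocyte-like cells Bora, an activator of Aurka, stood at 4.57, 5.79 and 4.39 CPM against 3.47, 2.896 and 2.47 CPM (log2 fold -0.72, SE 0.30, edgeR adjusted p = 0.964). The libraries of the 2 groups did not overlap for these 3 genes, all lower in labelled KO libraries. In each of these 2 classes 3 other mitosis genes were higher and 4 lower without overlap. Of all genes tested, 3.62% were higher and 4.5% lower in stem-like cells, and 3.6% and 4.96% in early enterocyte-like cells. Those higher included Psrc1 in stem-like (log2 fold 0.56, SE 0.31) and Cdc25c in early enterocyte-like cells (log2 fold 0.67, SE 0.33). Arl6ip1, whose groups overlapped, had the lowest p of the higher genes in stem-like cells. It stood at 124, 142 and 151 CPM against 132, 199 and 210 CPM (log2 fold 0.34, SE 0.17, edgeR adjusted p = 0.976). The same held in dividing-like cells (log2 fold 0.33, SE 0.15, edgeR adjusted p = 0.936).

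Of 58 DNA replication genes, 0 passed in any class. In stem-like cells 13 of the 57 tested had a log2 fold above 0 and 44 below, with a median of -0.094, beside 4698 above and 4664 below among all genes. Early enterocyte-like cells had 11 above and 39 below (median -0.091), while dividing-like cells had 24 above and 34 below (median -0.020). Secretory progenitor-like cells had 30 above and 27 below (median 0.013). Of the tested mitosis genes, 7 were above and 21 below in stem-like, and 12 and 21 in early enterocyte-like cells. In dividing-like cells 19 were above and 17 below, and in secretory progenitor-like cells 17 and 19. Genes of a list are not independent, so these counts are a description, and a joint change was not tested. Mcm10, which helps start DNA replication, had the lowest p in stem-like cells, at 22.0, 22.7 and 19.7 CPM in wild-type and 19.1, 9.94 and 11.5 CPM in labelled KO libraries (log2 fold -0.66, SE 0.28, edgeR adjusted p = 0.976). Without labelled KO replicate 1 its log2 fold was -1.09, and without labelled KO replicate 2 it was -0.43. Cdc7 stood at 5.21, 6.43 and 7.29 CPM in wild-type and 8.44, 8.13 and 10.8 CPM in labelled KO stem-like cells. Its log2 fold was 0.49 (SE 0.27, edgeR adjusted p = 0.976). Cdc7 was the 1 DNA replication gene of 57 that was higher without overlap there, and 3 were lower (3.62% and 4.5% of all genes). Of 14 cell-cycle inhibitors, 0 passed in any class, and their median log2 fold lay between -0.067 and 0.034. At an unadjusted edgeR p below 0.05 stood 2 of 11 tested in stem-like cells, both lower, beside 3.24% of all genes. In early enterocyte-like cells 2 of 13 did, 1 higher and 1 lower, beside 3.57% of all genes. Dividing-like and secretory progenitor-like cells had 0 of 13 each (2.68% and 1.42% of all genes).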

How the data were processed

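Single-cell RNA libraries were made with a 10x 3′ version 2 kit, per the labels' protocols. The authors deposited raw matrices of whole UMI counts (genes by barcodes, not normalized), with 28475253 to 76133693 UMIs per library. The submitters' processing notes name mm10, Seurat (with no version), Cell Ranger 2.1.1 and bcl2fastq 2.17.1.14.

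Barcodes under 500 genes (3), under 1000 UMIs (0) or over 25% mitochondrial UMIs (107) were left out. The doublet caller's own threshold marked under 0.5% in 5 of 6 libraries, so the highest-scoring 0.8% per 1000 barcodes (969 in all) were removed. Cells were scaled to 10000 UMIs, reduced to 30 components over 2000 variable genes, corrected for library by a soft-clustering method written after Harmony and grouped with scanpy 1.11.5 (15 neighbours, Leiden resolution 1.5). Clusters were named from marker lists by their first 10 genes by fold, with at least 3 markers among the first 50.

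UMIs were summed per library and class and tested in R 4.3.3 with edgeR 4.0.16 (quasi-likelihood, TMM, filterByExpr). Genotype was the only term, with Benjamini-Hochberg adjustment over all genes tested and a threshold of 0.05. DESeq2 1.42.0 was run as an alternative. The edgeR fit was also run on simulated counts of independent libraries, and the outcome is not given here. Intervals are approximate, from the fit's standard error and degrees of freedom. Shares of cells were compared over libraries with exact 2-sided permutation tests.

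Same-numbered libraries deviated together from their group means in each of the 4 classes (r 0.505 to 0.627 for number 1, 0.208 to 0.252 for number 2 and 0.108 to 0.171 for number 3). A block for the number was run as an alternative only, and the main fit and the permutation tests took no pairs. With that block 5.88% of all genes in dividing-like cells had an unadjusted edgeR p below 0.05, against 2.68% in the main fit. Of the 36 mitosis genes 1 did in either fit. Wild-type replicate 2 and labelled KO replicate 3 deviated together more (r 0.368 to 0.502) than the pairs numbered 2 and 3. Any pairing comes from the data, not from the labels.

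Values in every library were given for 12 genes fixed by name, for any gene passing the test and for up to 4 per class and direction whose libraries did not overlap; Ect2 and Nusap1, outside this rule, were added after their values were seen. From other mitosis and DNA replication genes, every gene with an unadjusted edgeR p below 0.05 was named, all of them lower in labelled KO libraries. Psrc1, Cdc25c, Arl6ip1 and Cdc7 were named beside them as genes with a log2 fold above 0. The members, lists and rules were chosen with earlier results of these data known, and leaving out both libraries numbered 1 was added after the data were seen.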

Additional observations from a re-analysis of the deposited data

How the results depend on the processing

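No mitosis gene passed an adjusted p of 0.05 in any of the 4 classes under any alternative run: DESeq2, library totals only, no filter on low counts, a block for replicate number or for the serial number of the deposited library, other clusterings, doublets kept, a UMI minimum of 13621, thinning to 4000 UMIs, each library left out, or both numbered 1 left out. With the replicate block 0 passed in each class (lowest edgeR adjusted p of a mitosis gene 0.680 in stem-like, 0.708 in dividing-like, 0.904 in secretory progenitor-like and 0.699 in early enterocyte-like cells), while the count over all genes went from 0 to 3, 0 to 1, 1 to 1 and 0 to 3 in that order. The block for the serial number only set both libraries numbered 1 against the rest. Without the correction for library, both libraries numbered 1 had too few cells in the stem-like and early enterocyte-like classes and were left out, and under the UMI minimum labelled KO replicate 3 was.

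Leaving out 1 library at a time, the median log2 fold ran from -0.511 to 0.00298 in stem-like, -0.0541 to 0.116 in dividing-like, -0.0720 to 0.179 in secretory progenitor-like and -0.340 to 0.0895 in early enterocyte-like cells. Single genes that changed sign were Ccnb1 (-0.205 to 0.494) and Top2a (-0.809 to 0.197) in stem-like, Mki67 (-0.462 to 0.0369) and Top2a (-0.213 to 0.103) in dividing-like, Mki67 (-0.590 to 0.170) and Top2a (-0.225 to 0.291) in secretory progenitor-like, and Mki67 (-0.276 to 0.205) and Top2a (-0.530 to 0.106) in early enterocyte-like cells. Ccnb1 was 0.285 in dividing-like and 0.218 in secretory progenitor-like cells without wild-type replicate 3. The count of mitosis genes without overlap ran from 0 to 12 in stem-like, 0 to 8 in dividing-like, 1 to 7 in secretory progenitor-like and 4 to 10 in early enterocyte-like cells, the highest each time without labelled KO replicate 1. Without that library, 14.9%, 16.9%, 12.1% and 13.99% of all genes tested had an unadjusted edgeR p below 0.05, in the same order. Smaller groups also separate more easily by chance, and no share of all genes without overlap is given for these settings. These counts are therefore a description and do not set the mitosis genes apart. The difference in cells with at least 10 UMIs (labelled KO minus wild-type, percentage points) ran from -3.50 to 5.67 in dividing-like, -5.70 to 8.61 in secretory progenitor-like, -1.84 to 0.912 in early enterocyte-like and -1.31 to -0.170 in stem-like cells.

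Other settings that turned a log2 fold were as follows, and the cause was not tested. With both libraries numbered 1 left out, Ccnb1 was -0.136 in stem-like, Top2a 0.0954 in secretory progenitor-like and Mki67 -0.156 in early enterocyte-like cells. In secretory progenitor-like cells Top2a was 0.0048 with library totals only and 0.0401 after thinning, and Mki67 0.123 under the UMI minimum. In early enterocyte-like cells clustering without cell-cycle genes gave Kif11 0.0873 and Mki67 -0.0673, no correction for library Ccnb1 -0.168 and Mki67 -0.252, Leiden resolution 1.0 Mki67 -0.102, doublets kept Mki67 -0.204 and the UMI minimum Top2a 0.720. Under that minimum the median was 0.0625 in stem-like, 0.189 in dividing-like, 0.0858 in secretory progenitor-like and 0.273 in early enterocyte-like cells, above 0 in all 4. Of the cells named stem-like there, 66.6% (wild-type) and 75.5% (labelled KO) held at least 10 mitosis-gene UMIs after thinning, unlike in the main setting.

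The difference in shares of cells also turned, within the spread of libraries (lowest exact permutation p over settings 0.2, the smallest that 3 against 2 libraries allow; 2 against 2 cannot go below 0.333). In dividing-like cells it was -1.52 at 5 UMIs or more, -0.0205 thinned to 2000 UMIs, -10.7 with no thinning, -0.0386 with doublets and -0.410 without both libraries numbered 1. In secretory progenitor-like cells it was -3.37, -3.74 and -9.21 under the first 3 of these. In early enterocyte-like cells it was 0.0615 and 2.24 under the first 2, 0.0945 with doublets, 0.831 clustering without cell-cycle genes and 3.08 under the UMI minimum, which gave 8.88 in stem-like cells.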
